A study of Caenorhabditis elegans with 24 samples.

Results

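The 16 genes described here had fewer antisense siRNAs at 23 °C than at 15 °C in WT and in the hrde-1(tm1200) strain, and their siRNAs came back when the animals were returned to 15 °C. They are eri-12, K01A6.6, tag-196, F19C6.2, fkb-5, rnst-2, nlp-62, R02D5.1, Y73B6A.3, bbln-1, klp-11, nfm-1, C24H12.1, mab-5, Y17D7B.4 and tax-6, of 20176 genes in the table. They were chosen by the measured siRNA values themselves. In each genotype, 1.5 times the highest of the 5 libraries of 23C-G2 to 23C-G6 had to lie at or under the lowest of the 6 libraries at 15 °C. The mean over all 24 libraries had to be at least 20 RPKM (antisense reads normalised to exon length and to the reads of the library), and the hrde-1 over WT ratio of means had to lie between 1/3 and 3. Of the 6575 genes of at least 20 RPKM, 6085 also met the bound on the ratio. Of these, 64 met the fall in WT, 42 met it in hrde-1 and 18 met it in both. Of the 18, fbxa-61 and nas-28 were left out because genes of their families were excluded by name. Every fall described below was therefore used for the choice and carries no test.

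The libraries came from whole young adults of 2 C. elegans strains, N2 (WT) and hrde-1(tm1200), fed on OP50 bacteria, with 1 lineage per strain. Each lineage was kept for 3 generations at 15 °C (15C-G1 to G3), then 6 at 23 °C (23C-G1 to G6), then 3 at 15 °C again (p15C-G1 to G3), and 1 small RNA library was made per strain and generation. Generations thus stand in for replicates, and a p-value reflects how far successive generations of a single lineage scattered. At 15 °C the animals were harvested 114 to 120 h, and at 23 °C 50 to 55 h, from the release of L1 larvae, so that temperature and time to collection cannot be told apart. Genotypes were compared by phase, where I is 15C, II the first and III the last 3 generations at 23 °C, and IV p15C.

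Most endogenous siRNAs of C. elegans are copied from mRNA by RNA-dependent RNA polymerases and are antisense to it. They are bound by Argonaute proteins, some of which silence their targets, while CSR-1 binds siRNAs of genes that are expressed in the germline. HRDE-1 is a nuclear Argonaute of the germline that is needed for heritable silencing. The siRNA level of a gene is not its mRNA level, and mRNA was not analysed here, so that tissue markers could not be checked against the labelled whole adults. In whole animals, fewer cells with siRNAs of a gene and fewer siRNAs per cell cannot be told apart.

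The depth that the steps of the low values imply ran from 300200 to 1045700 reads per library. It was 300200 to 554100 reads in the 10 libraries of 23C-G2 to G6 and 370600 to 1045700 in the 12 libraries at 15 °C. The lowest values are as if 1 read had been added to every gene, so that the floor in RPKM is higher in the shallower libraries. Counts of reads given below include that read. The siRNA level of hrde-1 itself was 249.7 to 320.6 RPKM in the 12 WT libraries and 119.4 to 164.0 RPKM in the 12 hrde-1 libraries, without overlap.

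**Figure D1:**
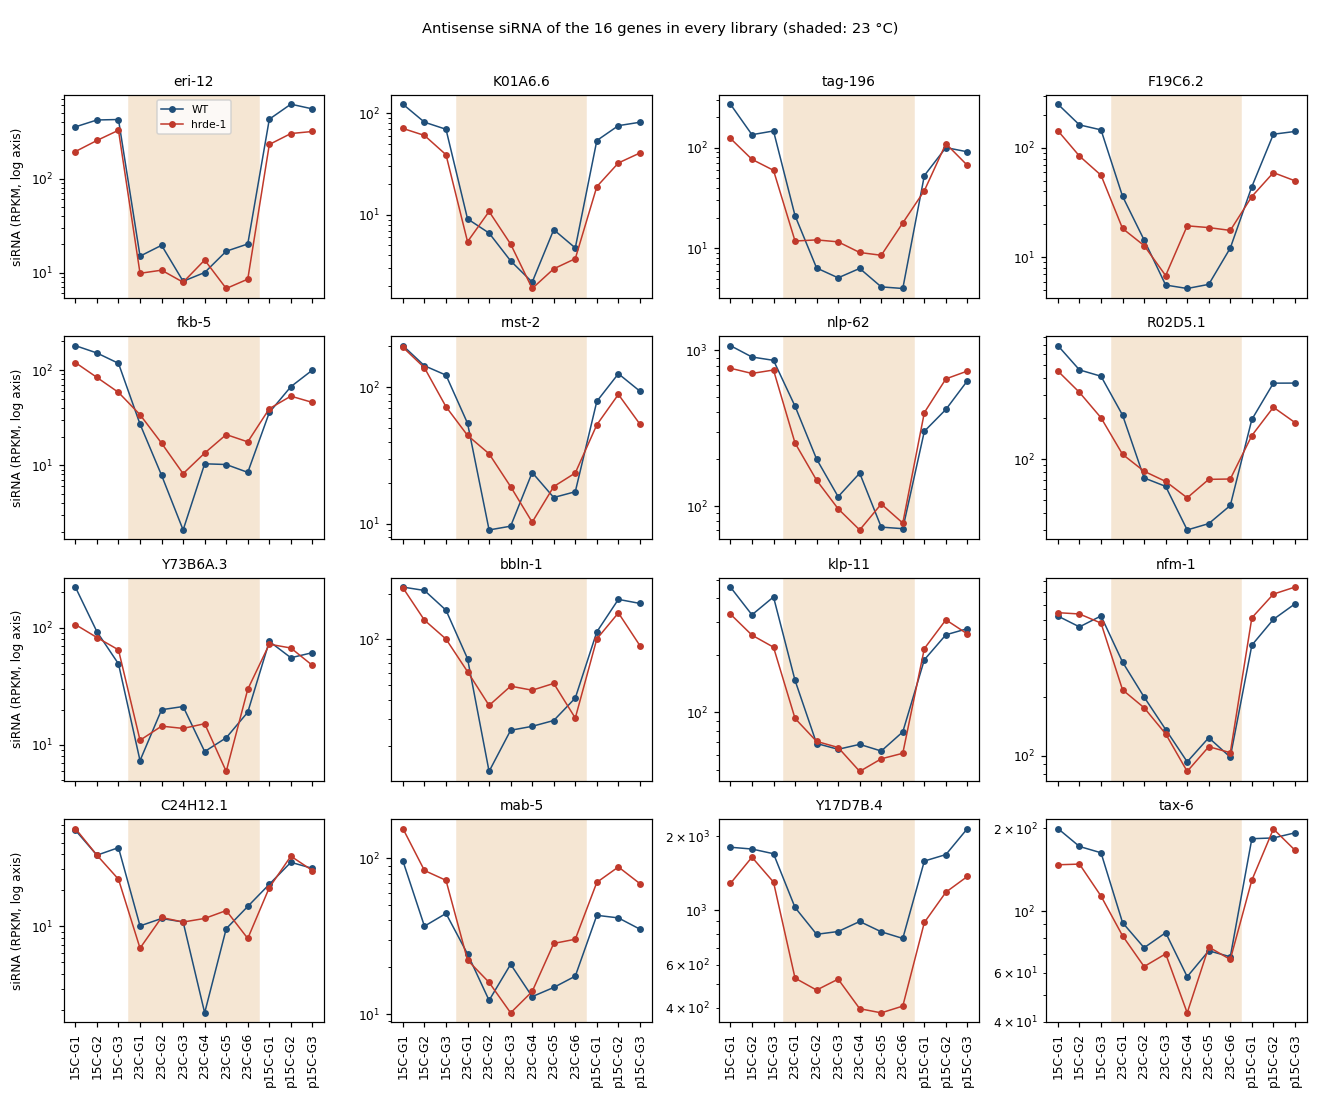
Antisense siRNA level (RPKM, log axis) of each of the 16 genes in every library, by generation from left to right, in WT (blue) and hrde-1 (red), with 1 library per point and the 23 °C generations shaded. In every panel the points of 23C-G2 to G6 lie under all points at 15 °C of the same genotype, from a fall of 31.3-fold for eri-12 to 2.18-fold for Y17D7B.4 in WT.

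eri-12 (B0001.6 in the table, IV:12156838-12164281, plus strand) had the deepest fall. The gene belongs to a group named for enhanced RNAi in their mutants. Its WT level was 355, 420 and 425 RPKM in 15C-G1 to G3, 14.9 in 23C-G1, 19.5, 8.07, 10.0, 16.9 and 20.1 in 23C-G2 to G6, and 429, 619 and 552 in p15C-G1 to G3. In hrde-1 it was 194, 254 and 327 RPKM in 15C-G1 to G3, 9.81 in 23C-G1, 10.6, 7.88, 13.6, 6.76 and 8.50 in 23C-G2 to G6, and 231, 301 and 317 in p15C-G1 to G3. The first generation at 23 °C was already as low as the later ones in both genotypes, and the first generation back at 15 °C was as high as before the shift. The mean of the 6 libraries at 15 °C was 31.3 times that of 23C-G2 to G6 in WT and 28.6 times in hrde-1. Even the lowest library at 15 °C was 17.6 times the highest of 23C-G2 to G6 in WT and 14.3 times in hrde-1.

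The genes with the next largest falls included those of 3 genes for enzymes. tag-196 (V:8594914-8597469, plus strand) encodes a cathepsin F-like cysteine protease. Its WT level was 270, 134 and 146 RPKM in 15C-G1 to G3, 21.1 in 23C-G1, 6.36, 5.08, 6.30, 4.13 and 3.98 in 23C-G2 to G6, and 52.7, 100.01 and 90.8 in p15C-G1 to G3. In hrde-1 it was 124, 76.5 and 59.5 RPKM, then 11.8 in 23C-G1, then 8.51 to 17.8 with a median of 11.6, and 37.3, 109 and 66.5 in p15C-G1 to G3. The WT libraries were the higher ones at 15C and the lower ones at 23C-G2 to G6, without overlap in either. fkb-5 (I:3898045-3899802, minus strand), an FKBP-type prolyl isomerase, fell 13.96-fold in WT and 4.31-fold in hrde-1. rnst-2 (K10C9.3 in the table, V:1061595-1067908, plus strand), a ribonuclease of the T2 family that degrades ribosomal RNA in lysosomes, fell 8.54-fold in WT and 4.85-fold in hrde-1.

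The other falls above 8-fold in WT were those of K01A6.6 (IV:11735325-11742308, plus strand), F19C6.2 (X:10000935-10005361, plus strand) and R02D5.1 (V:14508249-14509655, plus strand), with 16.6-fold, 17.03-fold and 8.47-fold in WT and 8.90-fold, 4.75-fold and 3.73-fold in hrde-1. Several of these ratios rest on few reads at 23 °C. In WT 23C-G2 to G6, K01A6.6 held 1 to 5 reads, fkb-5 held 1 to 6, tag-196 held 3 to 4 and rnst-2 held 3 to 8. F19C6.2 held 3 to 13 reads and R02D5.1 held 10 to 32 in the same libraries, beside 7 to 26 for eri-12. For these genes the values in reads were within 0.1 of a whole number in at least 91.7% of the libraries below 40 reads. Those of C24H12.1 were not, and its lowest library was at the floor of 1 read.

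Of the genes with roles in signalling, cell shape and transport, nlp-62 (F33D11.8 in the table, I:5854199-5855040, minus strand) was abundant. It belongs to the neuropeptide-like protein genes. Its WT level was 1073, 907 and 864 RPKM in 15C-G1 to G3, 438 in 23C-G1, 201, 115, 163, 73.4 and 71.7 in 23C-G2 to G6, and 303, 418 and 639 in p15C-G1 to G3. In hrde-1 it was 768, 712 and 749 RPKM, then 254 in 23C-G1, then 147, 96.2, 70.4, 103 and 77.9, and 399, 657 and 737 in p15C-G1 to G3. The 3 WT libraries of p15C all lay under the 3 of 15C, whereas in hrde-1 the highest p15C library lay above the lowest of 15C.

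klp-11 (IV:8756735-8762066, minus strand) encodes a motor subunit of kinesin-II, which moves cargo along cilia of sensory neurons. In WT it was 459, 327 and 407 RPKM in 15C-G1 to G3, 148 in 23C-G1, 62.6 to 79.01 in 23C-G2 to G6, and 190, 257 and 277 in p15C-G1 to G3. In hrde-1 it was 330, 256 and 221 RPKM, then 93.0 in 23C-G1, then 48.9 to 70.4, and 217, 308 and 260 in p15C-G1 to G3. The levels of the 5 libraries at 23C-G2 to G6 were close together, and the falls were 4.67-fold in WT and 4.39-fold in hrde-1.

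nfm-1 (III:6159453-6164589, plus strand), the homolog of the human tumour suppressor merlin (NF2), fell 3.84-fold in WT, with 372 to 608 RPKM at 15 °C and 92.8 to 201 RPKM at 23C-G2 to G6. In hrde-1 it fell 4.85-fold, with 484 to 742 RPKM and 82.8 to 177 RPKM. bbln-1 (C15C7.5 in the table, X:3151148-3152461, minus strand), which helps to order intermediate filaments of the intestine, fell 6.46-fold in WT and 3.09-fold in hrde-1. mab-5 (III:7776835-7783454, minus strand), a Hox gene of posterior body patterning, fell 3.16-fold in WT and 4.54-fold in hrde-1. Its lowest WT library at 15 °C held 35.2 RPKM and its highest at 23C-G2 to G6 held 20.9 RPKM.

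The smallest falls belonged to tax-6 and Y17D7B.4. tax-6 (IV:10492869-10501600, minus strand) encodes the catalytic subunit of calcineurin, a calcium-dependent phosphatase that acts in sensory neurons, among other cells. In WT it held 163 to 199 RPKM at 15 °C and 58.2 to 83.8 RPKM at 23C-G2 to G6, and in hrde-1 114 to 198 and 43.1 to 74.4 RPKM. The fold was 2.55 in WT and 2.37 in hrde-1. Y17D7B.4 (V:18776238-18776687, minus strand) was the most abundant of the 16. Its WT level was 1805, 1775 and 1699 RPKM in 15C-G1 to G3, 1026 in 23C-G1, 798, 819, 899, 817 and 767 in 23C-G2 to G6, and 1586, 1685 and 2151 in p15C-G1 to G3. In hrde-1 it was 1285, 1644 and 1301 RPKM, then 529 in 23C-G1, then 473, 524, 397, 382 and 407, and 891, 1184 and 1373 in p15C-G1 to G3. Its siRNAs stayed plentiful at 23 °C, and there every hrde-1 library lay under every WT library.

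The remaining genes, Y73B6A.3 (IV:6738727-6740290, minus strand) and C24H12.1 (II:441402-443780, plus strand), fell 5.77-fold and 4.05-fold in WT and 4.64-fold and 3.28-fold in hrde-1. Y73B6A.3 held only 1 to 4 reads in 23C-G2 to G6 in either genotype. Its lowest library at 15 °C held 9 reads in WT and 12 in hrde-1. C24H12.1 had the lowest mean of the 16, 24.02 RPKM. Over the 16 genes the median fold was 6.11 in WT and 4.59 in hrde-1.

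**Figure D2:**
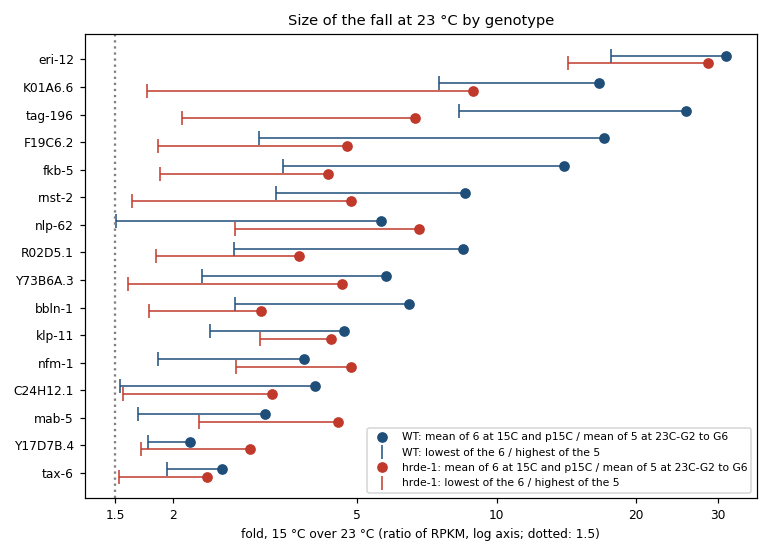
Fold of 15 °C over 23 °C (log axis) for each gene in WT (blue) and hrde-1 (red). Filled points are the mean of the 6 libraries at 15 °C over the mean of 23C-G2 to G6, ticks are the lowest of the 6 over the highest of the 5, and the dotted line is the 1.5-fold that chose the genes. eri-12 lies apart from the others on both measures, and the ticks of nlp-62 in WT (1.51) and tax-6 in hrde-1 (1.53) lie at the line.

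Because the choice had a threshold, the genes nearest to it are given as a description. Just inside it, the smaller of both genotypes' ratios of the lowest library at 15 °C over the highest at 23C-G2 to G6 was 1.51 for nlp-62, 1.53 for tax-6, 1.53 for C24H12.1, 1.60 for Y73B6A.3 and 1.63 for rnst-2. Just outside it were H12D21.7 at 1.46, ric-4 at 1.45, B0272.3 at 1.44, Y19D2B.2 at 1.42 and C33E10.1 at 1.41. With a 2-fold gap only eri-12, tag-196 and klp-11 remained, and with a gap midway between none and 1.5-fold there were 36 genes. When the libraries were rescaled by median ratios, nlp-62, tax-6, C24H12.1 and rnst-2 no longer met the rule.

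The first generation at 23 °C was not used for the choice, but the 15C and 23C-G2 to G6 libraries it is set against were. The choice asked for a gap between these, which favours a 23C-G1 under 15C or above 23C-G2 to G6. The shares of all genes given below are therefore not a matched background. 23C-G1 had been left out of the temperature comparison in the study because those animals had seen both temperatures. In both genotypes, 23C-G1 lay under every 15C library for all 16 genes, against 13.5% of the 6575 genes of at least 20 RPKM. It still lay above every library of 23C-G2 to G6 for 13 genes in WT, for 9 in hrde-1 and for 9 in both, where the shares of all genes of at least 20 RPKM were 17.5%, 18.8% and 4.84%. On a log2 scale on which 0 is the mean of 23C-G2 to G6 and 1 the mean of 15C, 23C-G1 stood at a median of 0.42 in WT and 0.23 in hrde-1. The genes differed in this. In WT, 23C-G1 stood at 0.64 for nfm-1, R02D5.1 and nlp-62, at 0.02 for eri-12 and at -0.39 for Y73B6A.3, which had few reads. Only eri-12, K01A6.6, tag-196, Y73B6A.3, C24H12.1 and Y17D7B.4 also met the rule when 23C-G1 was counted with 23C-G2 to G6. That asked for a 1.5-fold gap to 15 °C and not for a level as low as in the later generations. In WT, 23C-G1 of K01A6.6, tag-196 and Y17D7B.4 still lay above every library of 23C-G2 to G6, and that of the other genes named did not. There was 1 library of 23C-G1 per genotype, so no test was made.

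**Figure D3:**
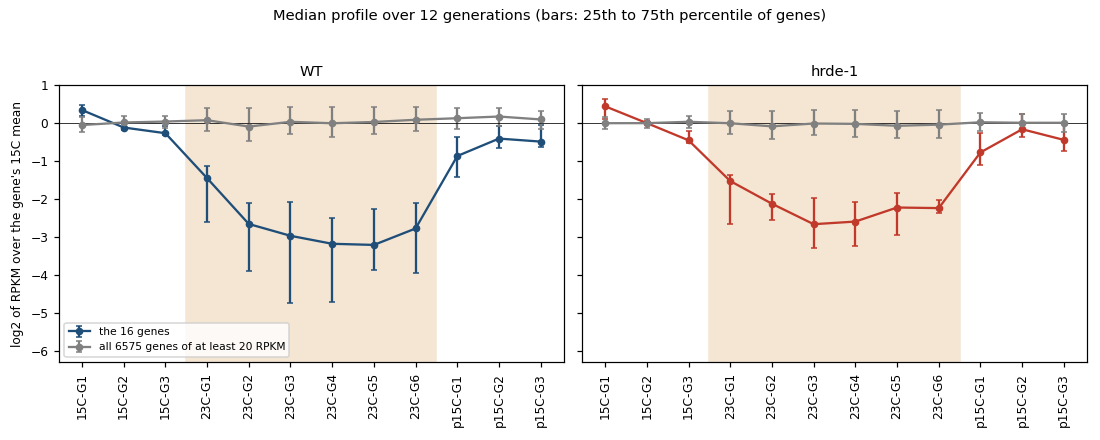
Median over the 16 genes (colour) and over all 6575 genes of at least 20 RPKM (grey) of the log2 ratio of each library to the gene's own 15C mean, in WT (left) and hrde-1 (right), with bars from the 25th to the 75th percentile of genes. The 16 genes stood at -1.45 in WT and -1.53 in hrde-1 in 23C-G1 and reached -3.21 in WT (23C-G5) and -2.67 in hrde-1 (23C-G3), and the grey medians stayed between -0.09 and 0.17.

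Whether the siRNAs went on falling over the generations at 23 °C was tested as a slope over 23C-G2 to G6 (limma on log2(RPKM + 1), Benjamini-Hochberg adjusted p of at most 0.1), which the rule did not use. None of the 16 genes was called in either genotype, where 0.0302% of all 19848 tested genes were called in WT and 0.277% in hrde-1. At an unadjusted p under 0.05 there were 3 of the 16 in WT and 1 in hrde-1, beside 10.4% and 7.17% of all genes tested. Slopes ran from -0.36 to 0.33 log2 units per generation in WT, with 8 of 16 above 0, and from -0.33 to 0.32 in hrde-1, with 6 above 0. nlp-62 had the steepest negative slope in WT, -0.36 ± 0.10 (SE, adjusted p = 0.237, limma). With 23C-G1 included, which the rule had not capped, nlp-62, nfm-1 and R02D5.1 were called in WT, among 103 of the 19848 genes (0.519%). In simulated data with a slope of 0.5 per generation in WT, 43% of such genes were recovered, so that smaller slopes were not reliably detectable.

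After the return to 15 °C the levels were compared with those before heat. By the choice, the p15C libraries lay above 23C-G2 to G6, but their relation to 15C was not fixed. The mean of p15C was under that of 15C for 13 of 16 genes in WT, 13 in hrde-1 and 12 in both, against 35%, 50.2% and 21.9% of the genes of at least 20 RPKM. The median log2 fold change was -0.65 in WT and -0.37 in hrde-1, beside 0.12 and 0.00 for the genes of at least 20 RPKM and -0.13 and -0.03 for all genes tested. eri-12, Y17D7B.4 and tax-6 were the exceptions in WT, with means of p15C at 1.33, 1.03 and 1.05 times those of 15C.

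In WT, 3 of the 16 genes were called lower at p15C than at 15C (limma, 2-fold and Benjamini-Hochberg adjusted p of at most 0.1), beside 1.13% of all genes tested that were called lower. The log2 fold change was -1.23 ± 0.43 (SE) for fkb-5, -1.15 ± 0.37 for tag-196 and -1.12 ± 0.34 for nlp-62, each with an adjusted p of 0.0881. fkb-5 held 180, 151 and 118 RPKM in 15C-G1 to G3 and 35.8, 66.8 and 99.8 RPKM in p15C-G1 to G3. For all 3 genes the 3 p15C libraries lay under the 3 of 15C. klp-11 also passed the adjusted p (0.0545, limma) but changed by less than 2-fold, -0.72 ± 0.18. By the adjusted p alone, 4 of the 16 passed, beside 22.9% of all genes tested. The 3 calls were not stable. All were lost when the read floor was taken off, when the generation number was used as a block, and when any 1 of 15C-G1, 15C-G2, 15C-G3, p15C-G1 or p15C-G2 was left out. Without p15C-G3, and when only genes averaging 5 reads or more were tested, only nlp-62 was called.

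In hrde-1 none of the 16 genes was called between p15C and 15C (limma, lowest adjusted p = 0.351, for rnst-2), where 1.83% of all genes were called in either direction, and 3 of the 16 had an unadjusted p under 0.05, beside 9.77% of all genes. Log2 fold changes ran from -0.98 for rnst-2 to 0.29 for nfm-1. Without hrde-1 15C-G3, rnst-2 was called. The difference between the genotypes in this change was tested as an interaction. None of the 16 was called (limma, lowest adjusted p = 0.347, for klp-11), beside 1.05% of all genes. At an unadjusted p under 0.05 there was 1, beside 11% of all genes. The calls in WT and their lack in hrde-1 are thus not shown to differ.

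**Figure D4:**
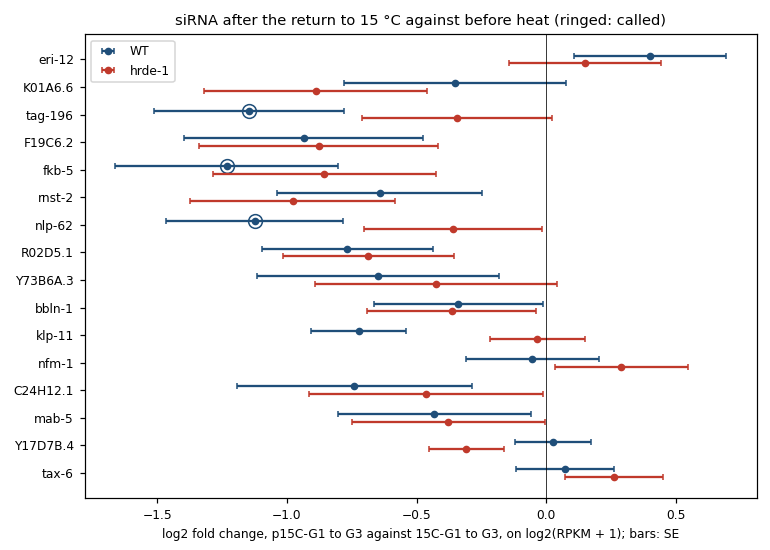
Log2 fold change of p15C-G1 to G3 against 15C-G1 to G3 for each gene in WT (blue) and hrde-1 (red), from the fit over all 24 libraries, with bars of 1 SE and rings around called genes. Most points lie left of 0 in both genotypes, the 3 ringed genes (fkb-5, tag-196 and nlp-62) were called in WT, and eri-12 lies right of 0 in both genotypes (0.40 in WT and 0.15 in hrde-1).

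Within the return to 15 °C, p15C-G1 was the lowest of the 3 p15C libraries for 14 genes in WT, 13 in hrde-1 and 13 in both, against 34.6%, 31.3% and 11.8% of the genes of at least 20 RPKM. 15C-G1 was the highest of the 3 15C libraries for 14 genes in WT, 13 in hrde-1 and 12 in both, against 30.5%, 34.9% and 16.8%. 15C-G3 was the lowest of the 3 in both genotypes for 8 of the 16 genes, against 799 of the 6575 genes of at least 20 RPKM. The median of the 16 genes, as log2 ratio to the 15C mean, was 0.34, -0.12 and -0.27 in WT 15C-G1 to G3 and -0.87, -0.41 and -0.49 in WT p15C-G1 to G3. In hrde-1 it was 0.44, 0.00 and -0.46, and then -0.77, -0.16 and -0.45. These orders rest on 1 library per generation and genotype and have no test, and the 16 genes are not independent of each other. Over the 24 libraries, Pearson's r between 2 of the genes had a median of 0.87 over the 120 pairs (0.61 to 0.96), which the choice favours since all fall at 23 °C. After the mean of each genotype and condition was removed, the median r was 0.29, with 100 of 120 pairs above 0.

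The genotypes were then compared at each phase. Over 12 libraries, the hrde-1 over WT ratio of means had a median of 0.82 over the 16 genes, from 0.55 for F19C6.2 to 1.65 for mab-5, beside 1.06 for the genes of at least 20 RPKM. The rule had bounded this ratio. In the fit by phase, 23C-G1 is in phase II with 23C-G2 and G3, and all phases share 1 estimate of spread. For some genes the SE was larger in phase I than for p15C against 15C in the fit by condition, as for fkb-5 (0.54 and 0.43). For others it was smaller, as for K01A6.6 (0.38 and 0.43). The effect of this on the calls was not tested. In phase I none of the 16 genes was called between the genotypes (limma), where 7.82% of all genes were called, and 5 had an unadjusted p under 0.05, beside 21% of all genes. tag-196 was called lower in hrde-1 without hrde-1 15C-G1 and with median-ratio scaling. mab-5 was called higher in hrde-1 without WT 15C-G1. When the generation number was used as a block, F19C6.2 and tag-196 were called, both lower in hrde-1. In phase II none was called, beside 5.7%, and 1 had an unadjusted p under 0.05, beside 15.7%. That gene was Y17D7B.4, at -0.78 ± 0.14 (adjusted p = 0.000412, limma), under 2-fold. Without WT 23C-G1, bbln-1, fkb-5 and rnst-2 were called, all higher in hrde-1.

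In phase III, Y17D7B.4 was called lower in hrde-1, beside 3.18% of all genes called lower. Its log2 fold change was -1.06 ± 0.14 (SE, limma, adjusted p = 6.3e-06), with WT at 899, 817 and 767 RPKM and hrde-1 at 397, 382 and 407 RPKM. It held whichever of these libraries was left out, between -1.12 and -1.001. F19C6.2 was called besides it without WT 23C-G6, and tag-196 once the floor had been subtracted, but both were higher in hrde-1. When the generation number was used as a block, both of these were called as well. In phase IV, Y17D7B.4 was also lower in hrde-1, -0.66 ± 0.14 (limma, adjusted p = 0.00191), which is under 2-fold. In phase IV, K01A6.6 was called lower in hrde-1, beside 4.35% of all genes called lower, where WT held 53.7, 75.2 and 81.3 RPKM and hrde-1 held 18.9, 32.4 and 40.5 RPKM. Its change was -1.21 ± 0.38 (limma, adjusted p = 0.0473). The call was lost without WT p15C-G2 (-1.15), without WT p15C-G3 (-1.10), without hrde-1 p15C-G1 (-0.91) and when the read floor was taken off (-1.24). eri-12 changed by -0.91 ± 0.29 (limma, adjusted p = 0.0492), under 2-fold, and without WT p15C-G1 eri-12 and F19C6.2 were called as well.

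The size of the fall from 15C to 23C-G2 to G6 in the 2 genotypes is given as a description. The libraries that chose the genes are the ones compared, so that the fit of this difference is no independent evidence. For 13 of 16 genes the fall was larger in WT, with a median difference of 0.49 log2 units, beside 0.22 for all genes and -0.04 for the genes of at least 20 RPKM. The difference was largest for tag-196, whose fold from the means of 15C was 35.5 in WT and 7.32 in hrde-1. It came to 2.10 ± 0.46 log2 units (SE) for tag-196, 1.81 ± 0.58 for F19C6.2, 1.79 ± 0.54 for fkb-5 and 1.28 ± 0.42 for R02D5.1. With 1 library left out, that of tag-196 ran from 1.79 to 2.39, and it was 2.32 once the floor had been subtracted. In the fit 1 of the 16 genes (tag-196) passed the threshold, beside 2.51% of all genes, and nothing is read from this count.

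The genes lie on all 6 chromosomes, with 5 on IV, 4 on V, 2 each on I, III and X and 1 on II. Chromosomes I to V and X held 12.5%, 6.25%, 12.5%, 31.3%, 25% and 12.5% of the 16. They held 21.6%, 19.4%, 21.2%, 17.7%, 15.3% and 4.76% of the genes of at least 20 RPKM. These shares were not tested. None of the 16 genes flanks another. Of the 32 genes flanking them on either side, 1 was called lower at 23C-G2 to G6 in WT, beside 2.64% of all genes. In hrde-1 there was also 1, beside 2.7%. Called higher were 1 in WT and 1 in hrde-1, beside 3.94% and 3.71%. These counts are near the shares of all genes, and nothing is read from them. The gene called lower was the same in both genotypes. It was W10D9.2, 4566 bases from C24H12.1 on the other strand, with WT means of 38.4 RPKM at 15C and 6.92 RPKM at 23C-G2 to G6, and hrde-1 means of 26.2 and 7.38 RPKM. Its log2 fold change was -2.32 in WT and -1.82 in hrde-1, close to those of C24H12.1, -2.41 and -1.78, and its mean over the 24 libraries, 17.2 RPKM, kept it out of the choice. The flanking genes as a whole stood at a median of 0.11 in WT and 0.34 in hrde-1, beside 0.10 and 0.31 for all genes tested. Only 10 of the 32 had a mean of at least 20 RPKM, and near the read floor a fall cannot show. The genes overlapping a member were K01A6.4, F19C6.3, str-67, K10C9.7 and ced-5, all on the other strand. Their means ran from 1.61 RPKM for F19C6.3 to 27.3 RPKM for ced-5, and none was called lower. The members had a median exon length of 1118 bases and 5 exons, against 1244 bases and 5 exons for the genes of at least 20 RPKM. Positions are those of WBcel235, by gene name, whereas the reads had been aligned to an older release.

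**Figure D5:**
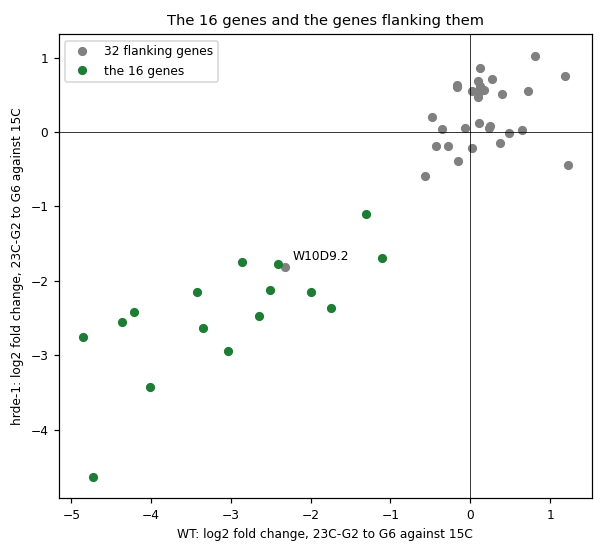
Log2 fold change of 23C-G2 to G6 against 15C in WT (x axis) and hrde-1 (y axis) for the 16 genes (green) and the 32 genes flanking them (grey). The green points were chosen to lie in the lower left, and of the grey points only W10D9.2 lies among them.

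Genes that work with the 16 were looked at by a list of 25 that was written after the 16 were known. Of the kinesin-II genes, kap-1, the accessory subunit, was called lower at 23C-G2 to G6 against 15C, at -1.06 in WT and -1.18 in hrde-1, at a mean of only 9.26 RPKM. klp-20, the other motor subunit, stood at 0.99 in WT and 0.73 in hrde-1, and osm-3, a second kinesin of cilia, was called higher in WT (1.13) and stood at 0.82 in hrde-1. Of the subunits of this motor, klp-11, which was chosen for its fall, and kap-1 were thus lower, and klp-20 was not called. Differences between the subunits were not tested. cnb-1, the regulatory subunit of calcineurin beside tax-6, stood at -0.79 and -0.52 and was not called. Of the other FKBP genes, fkb-1 was called higher in WT (1.23), and the other 6 were not called. The other Hox genes ceh-13, lin-39, egl-5, php-3 and nob-1 held 2.19 to 7.34 RPKM, and none was called. kap-1 was the only one of the 25 called lower in either genotype, beside 2.64% of all genes in WT and 2.7% in hrde-1. Called higher were 2 in WT and 0 in hrde-1, beside 3.94% and 3.71%. Of the 25, 14 had a mean under 20 RPKM, and nothing is read from these counts.

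None of the 16 genes is in any of 11 lists of germline, small RNA pathway, heat shock, lipid and tissue genes. The msp, spe and cpr genes on the spermatogenesis and intestine lists had been excluded by name and could not be chosen. With 16 genes chosen of 20176, lists of this size could well hold none, so nothing is read from this. At 23C-G2 to G6 against 15C, 3 of 33 tested neuron genes were called lower in WT, beside 2.64% of all genes. In hrde-1 there were 7, beside 2.7%. Called higher were 2 in WT and 1 in hrde-1, beside 3.94% and 3.71%. ric-4, the SNAP-25 homolog of synapses that lay just outside the threshold, was called lower in both, as were ZC416.8a and ida-1. egl-21 was called higher in both genotypes and unc-31 in WT. Only 7 genes of the neuron list had a mean of at least 20 RPKM. The summed siRNA level of the neuron list was 469 to 822 RPKM at 15C, 303 to 468 at 23C-G2 to G6 and 369 to 447 at p15C in WT, and 599 to 925, 698 to 1015 and 882 to 1013 RPKM in hrde-1. The sums of 15C and 23C-G2 to G6 did not overlap in WT and overlapped in hrde-1. The oocyte and early embryo list and the mitotic and meiotic germline list had no gene called in either genotype (25 and 38 genes tested). Of the spermatogenesis genes, 56 tested, 4 were called higher in WT and 2 in hrde-1, and 1 lower in hrde-1. Their sum ran from 527 to 810 RPKM at 15C and from 618 to 2369 at 23C-G2 to G6 in WT, and from 658 to 2644 and from 835 to 1859 RPKM in hrde-1. Of the heat shock and chaperone genes, 4 of 31 were called higher in WT and 9 in hrde-1, among them hsp-16.1 and hsp-16.48, and none lower. Of the 50 small RNA pathway genes, none was called lower in WT and 1, C02F5.6, in hrde-1. The part of changes in tissue makeup, sperm number or depth in the fall of the 16 genes was not tested.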

How the data were processed

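Small RNA-seq of 24 libraries was analysed. The deposited values are RPKM, 1 per mRNA and library. The authors aligned reads with Bowtie 0.12.7 to the mRNAs of WormBase release WS190, kept perfect antisense matches, and divided by exon length and total reads. The treatment of reads matching several genes was not given, which leaves the values of genes with near-identical copies uncertain. The 20911 transcripts were reduced to 20176 genes by the highest mean, and 6 names turned into dates by spreadsheet software were mapped back to sequence names. Low values lay on whole steps, as of reads, in 92.5% of cases (tolerance 0.1 step, 10101 low transcripts), with 1 step of a transcript of 1 kb worth 0.956 to 3.33 RPKM. Depth was inferred from these steps, with no exact 0 in the table. Reads of a gene were set by exon length and, for 15436 genes with few reads, by the nearest scale on which at least 70% of its values were whole (tolerance 0.1 read). Which reads the totals count is not given.

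log2(RPKM + 1) of 19848 genes (24-library mean 1 RPKM or more) was fitted with limma 3.58.1 in R 4.3.3 (eBayes with trend, two-sided), with means per genotype and condition (15C, 23C-G1, 23C-G2 to G6, p15C) and, separately, per genotype and phase. All libraries shared 1 estimate of spread. Calls needed a 2-fold change and, after Benjamini-Hochberg adjustment, p of at most 0.1, the latter alone for slopes. On simulated data 88.5% of genes changed by 2 log2 units were recovered for p15C against 15C in WT and 88% for phase I. Alternatives changed the pseudocount (10 RPKM), scaling, filter, read floor, generation block and libraries. All genes meeting the rule were named, with the 5 nearest to the threshold on either side. The members, lists and tests were chosen with earlier results of these data known. Symbols and positions are from WBcel235 and RefSeq, matched by name for 97.1% of genes.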

Additional observations from a re-analysis of the deposited data

Results flagged for a closer look

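The fall of tag-196 siRNAs at 23 °C was set apart by its difference between the genotypes. From 15C to 23C-G2 to G6 the fall was smaller in hrde-1 than in WT by 2.10 log2 units. The gene had been chosen by the same libraries, so the interaction that set it apart (limma, adjusted p = 0.016) is no independent evidence of a difference. All 3 WT libraries of 15C were above the highest hrde-1 library of 15C, and all 5 WT libraries of 23C-G2 to G6 were below the lowest hrde-1 library. The levels at 23 °C correspond to 3 to 4 reads in WT and 5 to 10 reads in hrde-1. With the read floor taken off, the difference was 2.32 log2 units. The part of counting error in it was not tested. Among 32 groups of 5 libraries (16 genes, 23C-G2 to G6, each genotype), no library stood apart from the others by Dixon's criterion, where chance alone would set apart about 1 in 20 groups.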

How the results depend on the processing

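The number of genes that met the rule, 16, became 36 with the smaller gap, 3 with 2-fold, and 6 when 23C-G1 had to meet it. It ran from 16 to 22 with 1 library left out, was 12 with median-ratio scaling, 17 with the read floor taken off and 12 at a mean of at least 50 RPKM. Counts of the 16 genes called moved as follows. With the read floor taken off, p15C against 15C in WT went from 3 to 0 and phase IV from 1 to 0. Phase III went from 1 to 2 by tag-196, which was higher in hrde-1. With median-ratio scaling, phase I went from 0 to 1, and the median of all genes moved from -0.19 to -0.29 there and from -0.13 to -0.23 for p15C against 15C in WT. With a pseudocount of 10 RPKM, the difference of the fall went from 1 to 2. With 23C-G1 in the slope, WT went from 0 to 3. When only genes averaging 5 reads or more were tested, an alternative chosen after seeing the data, p15C against 15C in WT had 1 (nlp-62), phase I 1 (tag-196), phase III 3 and the difference of the fall 4. No direction reversed among the genes called. The causes of these moves were not tested.

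Leaving out 1 library gave 0 to 1 calls for p15C against 15C in WT, 0 to 1 in hrde-1 and 0 to 0 for their difference, 0 to 1, 0 to 3, 1 to 2 and 0 to 3 in phases I to IV, 1 to 5 for the difference of the fall, and 0 to 0 for both slopes. The calls of phase II were bbln-1, fkb-5 and rnst-2 without WT 23C-G1, all higher in hrde-1.

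Generation numbers are shared by the genotypes and by 15C and p15C. Same-numbered libraries of the genotypes deviated together in part (r = -0.03 to 0.39, above 0.1 for 10 of 12 pairs). Between 15C and p15C, r ran from -0.10 to 0.27. The main fit did not pair libraries, so that a deviation shared by the genotypes stayed in its spread, and its counts by phase depend on this. With the generation as a block, p15C against 15C in WT had 0 genes called. Phase I had 2, F19C6.2 and tag-196, both lower in hrde-1. Phase III had 3, Y17D7B.4 and the same 2, which were there higher in hrde-1. The difference of the fall had 4 (F19C6.2, fkb-5, R02D5.1 and tag-196). The libraries of the difference of the fall had also chosen the genes.

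Over all genes, p15C against 15C in WT had 711 genes called, and 130 with a pseudocount of 10, 347 with the floor off, 340 with the block and 272 among genes averaging 5 reads or more. A pseudocount of 10 gave 915 against 1552 in phase I, 710 against 1132 in phase II and 944 against 1587 in phase IV.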
